A study of Homo sapiens with 6 samples.

Results

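The genes examined are the molecular chaperones of the heat shock protein, DNAJ and chaperonin families, measured in the human cell line U937T:PLZF-RARa with and without expression of the fusion protein PLZF-RARA. Members were all genes whose probe sets carry exactly 1 symbol that begins with HSPA, HSPB, HSPH, HSP90 or DNAJ, or that is HSPD1, HSPE1, TCP1 or 1 of the CCT subunits. HSPBP1, HSPBAP1 and pseudogenes were left out. This gave 80 of the 19775 genes with such a probe set, on 184 probe sets. The 80 comprise 75 protein-coding genes and 5 non-coding transcripts named after a neighbouring DNAJ or HSPA gene. Every probe set of HSPA8, TCP1, HSPA1A and HSPA1B carries further symbols, so these genes are not described.

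U937T:PLZF-RARa derives from U937, a human monocytic leukaemia line, and makes PLZF-RARA, the fusion found in a rare acute promyelocytic leukaemia, when tetracycline is taken out of the medium. The 3 induced samples were washed and grown without tetracycline for 48 h. The 3 uninduced samples kept tetracycline, and both groups grew with serum, puromycin and G418. Whether the line is 1 clone is not given in the sources used here. None of the samples are of cells without the fusion gene grown without tetracycline. The removal of the drug and the expression of the fusion therefore cannot be told apart.

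Chaperones bind unfolded proteins and help them to fold, assemble, cross membranes or be degraded. HSP70 proteins (HSPA genes) do so in cycles of ATP hydrolysis that J-domain proteins (DNAJ genes) start and that nucleotide exchange factors, among them the HSP110 proteins, reset. HSP90 proteins finish the folding of kinases and hormone receptors, small heat shock proteins (HSPB genes) hold unfolded proteins in solution, and the chaperonin rings enclose a protein while it folds. Heat shock factor HSF1 drives many of these genes in the cytosol, and the unfolded protein response drives those of the endoplasmic reticulum (ER).

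Each sample was hybridised to 1 Affymetrix HG-U133 Plus 2.0 array, and values are log2 intensities of the brightest probe set of a gene. A probe set of RARA, the 3' partner of the fusion, lay at 7.40 to 7.73 in induced samples, against 1.81 to 1.99 in uninduced samples. Of 12 myeloid markers 10 had a probe set of their own, of which 7 passed the filter on dim probe sets, a log2 value above 4 on at least 3 of the 6 arrays. Their summed intensity over the 10 genes was 27923 to 29054 in induced samples and 30450 to 33604 in uninduced samples, and MPO lay below the filter. None of the T cell or erythroid markers passed it, and 1 marker each of B cells, epithelia and fibroblasts did. Uninduced replicate 3 was dimmer than the rest, with a median log2 value of 8.21 over the tested probe sets, against 8.37 to 8.44 on the other arrays. As a measure of RNA quality, log2 signal at the 3' end of the GAPDH control exceeded that at its 5' end by 0.579 ± 0.034 in induced and 0.503 ± 0.025 in uninduced samples (SD, n = 3 each, two-sided exact permutation p = 0.1, the smallest that 3 against 3 allows). What part RNA quality, array brightness and marker levels have in the results below was not tested. Since nothing in the labels tells whether the replicates came from different cultures, the spread behind each p-value may be technical, and with so few arrays the precision is limited. A lower array value does not show whether fewer cells made a transcript or each cell made less.

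More chaperone genes fell than rose after induction. Of the 80 members 55 passed the filter, and of these 28 fell, 8 rose and 19 did not pass the test (limma, adjusted p under 0.05). Over all 9834 genes tested 30.7% fell and 35.8% rose, or 66.5% in all. Among the 55 tested chaperone genes the shares were 50.9% and 14.5%, and their median log2 difference, induced minus uninduced, was -0.23, beside 0.02 for all genes. Without the dimmer uninduced replicate 3 the counts were 30 lower and 8 higher, and over all genes 33.2% fell and 33.3% rose. The values of induced and uninduced samples did not overlap in 39 of the 55, or 70.9%, beside 74.4% of all genes. Of the 55, 5 fell at least 2-fold (DNAJA3, DNAJC2, HSPA9, DNAJC12 and HSPE1) and 3 rose as much (DNAJB2, DNAJB4 and DNAJB14). Over all genes 8.83% fell and 10.8% rose at least 2-fold, so the share with such a fall was near the background. Most falls were smaller, here as over all genes, where 868 of the 3019 that fell reached 2-fold.

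**Figure D1:**
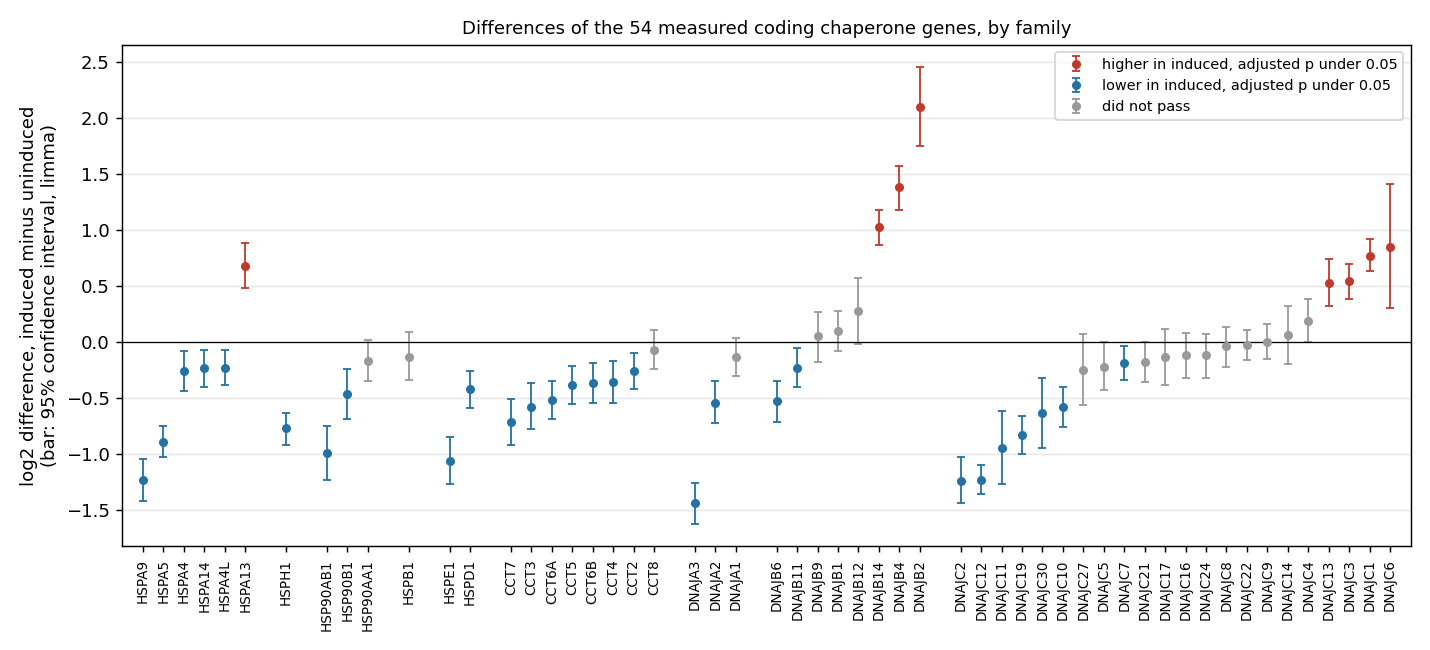
Log2 difference, induced minus uninduced, of the 54 measured coding chaperone genes, grouped by family along the horizontal axis. Points are limma estimates over 3 induced and 3 uninduced arrays, bars are 95% confidence intervals, and colour gives the call at an adjusted p of 0.05. The HSP and CCT genes lie mostly below 0, with HSPA13 as the 1 member that rose, and the DNAJB and DNAJC genes lie on both sides.

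The heat shock proteins and chaperonins themselves differed in their counts from their J-domain partners. Of 21 tested HSPA, HSPH, HSP90, HSPB, HSPD1, HSPE1 and CCT genes 17 fell and 1 rose, with a median log2 difference of -0.38. Of 33 tested DNAJ genes 11 fell and 7 rose, with a median of -0.12. The share of DNAJ genes that fell, 33.3%, was near the 30.7% of all genes, and the share that rose, 21.2%, was below the 35.8% of all genes. Whether these shares differ was not tested.

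The promoters of the HSP90 genes, HSPD1 and HSPA5 are shown because they hold the DNA motifs through which heat shock factor and the unfolded protein response are known to act, so that each level below can be read beside its control region. RefSeq windows from 250 bases before to 50 bases after the start site (GRCh38.p14) were found for 72 of the 80 members, 94 windows in all. The heat shock element was searched as the units GAA, TTC and GAA with 2 bases of any kind between neighbours. The ER stress element was searched as CCAAT and CCACG with 9 bases of any kind between them. Both elements were searched on both strands, and their matches are in capitals. Matches to the E-box, described below, are not marked. Where a gene has several start sites, the window with the most matches is shown.
HSP90AA1 (chr14:102086995-102087294, minus strand): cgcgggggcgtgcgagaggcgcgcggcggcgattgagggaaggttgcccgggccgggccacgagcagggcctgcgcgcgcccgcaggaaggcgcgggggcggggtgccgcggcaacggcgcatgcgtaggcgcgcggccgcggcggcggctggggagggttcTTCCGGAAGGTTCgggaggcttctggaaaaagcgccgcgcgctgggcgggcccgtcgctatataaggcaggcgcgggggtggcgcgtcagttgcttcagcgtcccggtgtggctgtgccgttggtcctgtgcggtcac
HSP90AB1 (chr6:44247693-44247992, plus strand): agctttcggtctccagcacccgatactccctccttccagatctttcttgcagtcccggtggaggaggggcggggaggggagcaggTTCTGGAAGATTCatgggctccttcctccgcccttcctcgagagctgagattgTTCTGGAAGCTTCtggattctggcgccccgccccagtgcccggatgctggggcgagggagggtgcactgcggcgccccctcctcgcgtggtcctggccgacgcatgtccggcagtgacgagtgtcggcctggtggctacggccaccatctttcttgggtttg
HSPD1 (chr2:197499791-197500090, minus strand): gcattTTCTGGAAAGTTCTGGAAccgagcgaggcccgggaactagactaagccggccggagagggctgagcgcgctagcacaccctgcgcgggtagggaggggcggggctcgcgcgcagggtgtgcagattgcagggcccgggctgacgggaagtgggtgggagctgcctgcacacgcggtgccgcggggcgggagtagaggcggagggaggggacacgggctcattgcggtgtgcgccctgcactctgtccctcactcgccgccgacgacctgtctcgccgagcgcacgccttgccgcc
HSPA5 (chr9:125241294-125241593, minus strand): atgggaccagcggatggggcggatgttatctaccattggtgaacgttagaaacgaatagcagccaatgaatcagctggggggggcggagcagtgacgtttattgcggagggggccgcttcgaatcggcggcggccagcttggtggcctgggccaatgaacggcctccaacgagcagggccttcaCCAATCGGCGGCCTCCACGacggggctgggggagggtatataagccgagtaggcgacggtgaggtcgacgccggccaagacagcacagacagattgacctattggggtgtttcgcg
HSP90B1 (chr12:103930160-103930459, plus strand): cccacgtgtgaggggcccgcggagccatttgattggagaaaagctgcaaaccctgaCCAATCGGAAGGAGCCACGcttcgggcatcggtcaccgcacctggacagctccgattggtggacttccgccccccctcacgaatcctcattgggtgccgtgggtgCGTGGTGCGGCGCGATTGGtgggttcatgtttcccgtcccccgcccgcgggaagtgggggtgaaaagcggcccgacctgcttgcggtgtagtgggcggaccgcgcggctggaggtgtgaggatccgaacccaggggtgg
The heat shock element occurred in 6 of the 94 windows of members, or 6.38%, and in 0.49% of all 35116 windows. It lay in windows of DNAJA1, DNAJB6, HSP90AA1, HSP90AB1, HSPA6 and HSPD1. The match began 88 bases before the start site in HSP90AA1 (-88), at -165 and -112 in HSP90AB1, and at -245 and -240, overlapping each other, in HSPD1. Of these 6 genes 5 were tested: DNAJB6, HSP90AB1 and HSPD1 fell, and HSP90AA1 and DNAJA1 did not pass the test. The ER stress element occurred in 2 windows of members, those of HSPA5 (-66) and HSP90B1 (-194 and -89), and in 0.0769% of all windows. Both genes fell. The E-box CACGTG, a site bound by MYC and other helix-loop-helix factors, occurred in 8 windows of members, or 8.51%, beside 7.26% of all windows, so its share was near the background. The 8 genes of these windows were all tested, and 5 fell and 0 rose. Over all genes 30.7% fell, and among the tested members 50.9%. Whether genes with a motif differ from the other members was not tested. A match is a description of the letters and shows no binding.

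Of the HSPA genes, HSPA9 of the mitochondria and HSPA5 of the ER had the largest falls, while HSPA13, also of the ER, rose. HSPA4, HSPA4L and HSPA14 of the cytosol fell by less, as described below. HSPA9 (mortalin), the mitochondrial HSP70 that draws imported proteins across the inner membrane, had log2 intensities of 12.54, 12.40 and 12.47 in induced samples, against 13.80, 13.74 and 13.57 in uninduced samples, and was 2.35-fold lower (limma, adjusted p = 2.07e-05). HSPA5 (BiP), the HSP70 of the ER and a marker of the unfolded protein response, had 13.04, 13.03 and 12.99 in induced samples, against 13.93, 13.94 and 13.85 in uninduced samples, and was 1.85-fold lower (adjusted p = 2.04e-05). In both genes every induced array lay well below every uninduced array, and all their tested probe sets, 3 of HSPA9 and 2 of HSPA5, fell.

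HSPA13 (STCH), an atypical HSP70 of microsomes, was the 1 HSPA gene that rose. Its values were 11.91, 11.69 and 11.82 in induced samples, against 11.12, 11.22 and 11.04 in uninduced samples, which is 1.60-fold higher (limma, adjusted p = 0.000365), and both its tested probe sets rose. HSPA14, a ribosome-associated HSP70, had 10.18, 10.12 and 10.03 in induced samples and 10.30, 10.42 and 10.31 in uninduced samples, a log2 difference of -0.23 (adjusted p = 0.0234). The groups did not overlap, but the gap between the nearest arrays was small, and 1 of its 3 tested probe sets passed the test.

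HSPA4 and HSPA4L, which with HSPH1 (HSP105) form the HSP110 group of exchange factors, fell as well. HSPH1 lay at 11.91, 12.01 and 12.01 in induced samples, against 12.75, 12.78 and 12.72 in uninduced samples, 1.71-fold lower (limma, adjusted p = 4.22e-05). HSPA4 lay at 12.04, 11.87 and 11.88 in induced samples and 12.26, 12.19 and 12.12 in uninduced samples, a difference of -0.26 (adjusted p = 0.0204). HSPA4L lay at 10.79, 10.75 and 10.77 in induced samples and 10.97, 11.09 and 10.94 in uninduced samples, a difference of -0.23 (adjusted p = 0.0183). No group overlapped the other in these 3 genes. In all, 5 of the 6 tested HSPA genes fell (83.3%) and 1 rose (16.7%), beside 30.7% lower and 35.8% higher over all genes. Only 2 of the HSPA genes were lower without induced replicate 2, without induced replicate 3 or without uninduced replicate 2. There HSPA4, HSPA4L and HSPA14 missed the threshold with limma adjusted p from 0.0533 to 0.0901. HSPA1L, HSPA2, HSPA6, HSPA12A and HSPA12B lay below the filter. HSPA6, known as a strictly stress-induced gene, had a mean of 3.19 in induced and 3.27 in uninduced samples.

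The cytosolic HSP90 genes differed in the size of their change. HSP90AB1, the constitutive form, had 12.70, 12.89 and 12.66 in induced samples, against 13.84, 13.82 and 13.58 in uninduced samples, and was 1.99-fold lower (limma, adjusted p = 0.000142). HSP90AA1, the stress-inducible form, had 15.28, 15.31 and 15.27 in induced samples and 15.53, 15.53 and 15.31 in uninduced samples, a difference of -0.17 with a 95% confidence interval of -0.35 to 0.02 (adjusted p = 0.0995). Its groups touched, since uninduced replicate 3 and induced replicate 2 had the same value to 2 decimals. Without uninduced replicate 3 the difference was -0.24 (adjusted p = 0.00926). The brightest probe set of HSP90AA1 was also the 1 of its 4 that did not pass: the others differed by -0.59, -0.35 and -0.23, and all 3 fell. HSP90B1 (GRP94), the HSP90 of the ER, had 10.41, 10.14 and 10.33 in induced samples, against 10.83, 10.80 and 10.63 in uninduced samples, and was 1.38-fold lower (adjusted p = 0.00447). Its groups did not overlap, and both its tested probe sets fell.

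Among the small heat shock proteins HSPB1 (HSP27), which binds unfolded proteins and actin, was the 1 of 7 genes above the filter. It had 13.41, 13.54 and 13.43 in induced samples and 13.72, 13.61 and 13.42 in uninduced samples, and did not pass the test (-0.13, 95% confidence interval -0.34 to 0.09, limma, adjusted p = 0.263). The groups overlapped through uninduced replicate 3, and without that array the gene passed at -0.21 (adjusted p = 0.0452). HSPB2, HSPB3, HSPB6, HSPB7, HSPB8 and HSPB9 had means of 1.81 to 2.90 in either group, below the filter.

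The mitochondrial chaperonin fell in both its parts. HSPE1 (HSP10), the lid of the folding chamber, had 13.82, 13.60 and 13.79 in induced samples, against 14.89, 14.81 and 14.70 in uninduced samples, and was 2.09-fold lower (limma, adjusted p = 5.31e-05). HSPD1 (HSP60), which forms the chamber, had 14.19, 14.34 and 14.20 in induced samples, against 14.69, 14.70 and 14.60 in uninduced samples, and was 1.34-fold lower by its brightest probe set (adjusted p = 0.00154). All induced arrays lay below all uninduced arrays in both genes. The other tested probe sets of HSPD1 gave larger differences, -0.95 and -2.12, so the size of its fall depended on the probe set while the direction did not.

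TRiC, the cytosolic chaperonin that folds actin and tubulin, is built from TCP1, which is not described here, and CCT subunits. The 8 CCT genes among the members, CCT6B included, therefore do not make up the whole ring. All 8 were tested, of which 7 fell (87.5%) and 0 rose, beside 30.7% lower and 35.8% higher over all genes. Their median log2 difference was -0.38, beside 0.02 for all genes. CCT7 had 11.91, 12.10 and 11.98 in induced samples, against 12.81, 12.74 and 12.58 in uninduced samples, and was 1.64-fold lower (limma, adjusted p = 0.000341). CCT3 had 13.17, 13.14 and 13.15 in induced samples, against 13.85, 13.78 and 13.56 in uninduced samples, and was 1.49-fold lower (adjusted p = 0.000955). CCT6A had 12.97, 12.89 and 12.84 in induced samples, against 13.51, 13.38 and 13.37 in uninduced samples, and was 1.43-fold lower (adjusted p = 0.000587). By the brightest probe set these 3 subunits had the largest log2 differences of the 8, and their groups were apart by more than the spread within either.

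CCT5 lay at 13.08, 13.29 and 13.15 in induced samples and 13.58, 13.56 and 13.52 in uninduced samples, a log2 difference of -0.38 (limma, adjusted p = 0.00324), and its other probe set fell by 1.23. CCT4 lay at 12.87, 13.08 and 12.95 in induced samples and 13.40, 13.34 and 13.24 in uninduced samples, a difference of -0.36 (adjusted p = 0.00602). CCT2 lay at 13.41, 13.48 and 13.41 in induced samples and 13.73, 13.76 and 13.60 in uninduced samples, a difference of -0.26 (adjusted p = 0.0124). Their groups did not overlap. CCT6B, a subunit known from testis, was near the filter, at 4.33, 4.30 and 4.46 in induced samples and 4.79, 4.65 and 4.75 in uninduced samples, a difference of -0.37 (adjusted p = 0.00382). CCT8 was the subunit that did not pass, at 14.03, 14.02 and 13.99 in induced samples and 14.13, 14.17 and 13.96 in uninduced samples (-0.07, 95% confidence interval -0.24 to 0.11, adjusted p = 0.443). Its groups overlapped through uninduced replicate 3. The 7 falls were also called when any 1 array was left out, where the count of lower subunits stayed at 7.

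**Figure D2:**
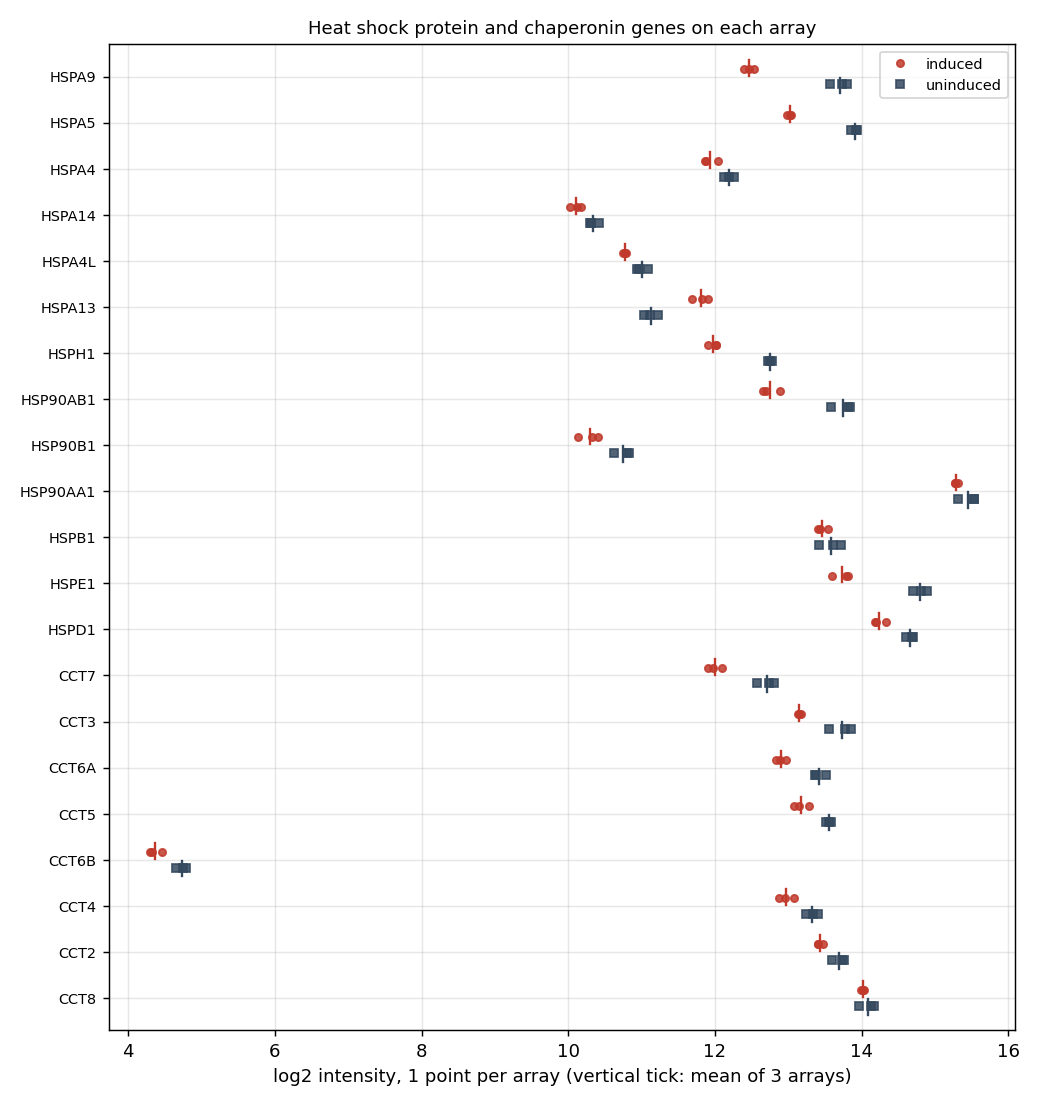
Log2 intensity of the 21 measured HSP and CCT genes on each array, with induced samples as circles above and uninduced samples as squares below for each gene, and a vertical tick at the mean of 3 arrays. Induced arrays lie left of uninduced arrays in 17 genes that fell and right of them in HSPA13, while HSP90AA1, HSPB1 and CCT8 have groups that touch or overlap.

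Among the DNAJA genes, whose proteins are the closest human relatives of bacterial DnaJ, 2 of 3 tested fell (66.7%), beside 30.7% of all genes. DNAJA3 (TID1), the mitochondrial member and a partner of HSPA9, had 8.99, 9.08 and 8.98 in induced samples, against 10.48, 10.54 and 10.34 in uninduced samples. It was 2.71-fold lower (limma, adjusted p = 7.40e-06) and its groups were far apart. DNAJA2, a cytosolic partner of HSP70, had 10.68, 10.79 and 10.84 in induced samples, against 11.38, 11.35 and 11.19 in uninduced samples, and was 1.45-fold lower (adjusted p = 0.000912), but its second tested probe set differed by only -0.08. DNAJA1, also cytosolic, had 12.64, 12.76 and 12.59 in induced samples and 12.82, 12.85 and 12.71 in uninduced samples, overlapped and did not pass (-0.13, 95% confidence interval -0.30 to 0.04, adjusted p = 0.159).

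The DNAJB genes held the rises that reached 2-fold. DNAJB2 (HSJ1), known in neurons for handing HSP70 clients to the proteasome, had 7.86, 7.97 and 8.01 in induced samples, against 5.94, 6.09 and 5.51 in uninduced samples, and was 4.29-fold higher (limma, adjusted p = 2.59e-05). DNAJB4, a cytosolic relative of DNAJB1, had 9.10, 8.95 and 9.20 in induced samples, against 7.66, 7.75 and 7.70 in uninduced samples, and was 2.59-fold higher (adjusted p = 1.19e-05). DNAJB14, an ER membrane protein, had 11.15, 11.05 and 11.13 in induced samples, against 10.13, 10.10 and 10.02 in uninduced samples, and was 2.04-fold higher (adjusted p = 1.56e-05). The groups of these 3 genes were far apart relative to their spread. All 3 tested probe sets of DNAJB14 rose by 0.81 to 1.03, those of DNAJB4 rose by 0.28 and 1.38, and DNAJB2 rests on 1 tested probe set.

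DNAJB6, which holds back protein aggregation, had 8.79, 9.01 and 8.92 in induced samples, against 9.47, 9.45 and 9.38 in uninduced samples, and was 1.44-fold lower (limma, adjusted p = 0.000784). DNAJB11 (ERdj3), a partner of HSPA5 in the ER, had 11.76, 11.78 and 11.73 in induced samples, against 12.04, 12.06 and 11.86 in uninduced samples, a log2 difference of -0.23 (adjusted p = 0.0304). Neither gene's groups overlapped, but DNAJB11 missed the threshold in 5 of the 6 fits that left out an array, with adjusted p of 0.0622 to 0.101, all but the fit without uninduced replicate 3, so that 1 DNAJB gene fell in those 5 fits. DNAJB1 (HSP40), the best-known heat-induced J protein, had 9.74, 9.98 and 9.88 in induced samples and 9.80, 9.77 and 9.73 in uninduced samples, overlapped and did not pass (0.10, 95% confidence interval -0.08 to 0.28, adjusted p = 0.292). DNAJB9 (ERdj4), an ER-stress gene, had 8.48, 8.26 and 8.58 in induced samples and 8.36, 8.37 and 8.45 in uninduced samples and did not pass either (0.05, 95% confidence interval -0.18 to 0.27, adjusted p = 0.694). Its other 2 tested probe sets, both dimmer, rose by 0.28 and 0.66. DNAJB12, an ER membrane protein, differed by 0.28 (adjusted p = 0.0915).

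Of 22 tested DNAJC genes, a family whose members share little beyond the J domain, 7 fell (31.8%), 4 rose (18.2%) and 11 did not pass, beside 30.7% lower and 35.8% higher over all genes, so the share that fell was near the background. DNAJC2 (MPP11), which works with HSPA14 at the ribosome, had 10.38, 10.22 and 10.18 in induced samples, against 11.48, 11.61 and 11.39 in uninduced samples, and was 2.36-fold lower (limma, adjusted p = 2.39e-05). DNAJC12, a partner of the aromatic amino acid hydroxylases, had 10.68, 10.63 and 10.63 in induced samples, against 11.89, 11.89 and 11.85 in uninduced samples, and was 2.34-fold lower (adjusted p = 4.39e-06). DNAJC19, a subunit of the import motor of the mitochondrial inner membrane, had 10.48, 10.63 and 10.50 in induced samples, against 11.40, 11.40 and 11.29 in uninduced samples, and was 1.78-fold lower (adjusted p = 5.93e-05). All arrays of the groups were apart in these 3 genes, and the tested probe sets of DNAJC12 (3) and DNAJC19 (2) all fell. DNAJC10 (ERdj5), a disulfide reductase of the ER, had 11.24, 11.24 and 11.11 in induced samples, against 11.79, 11.86 and 11.68 in uninduced samples, and was 1.49-fold lower (adjusted p = 0.000505), as all 4 of its tested probe sets were.

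The DNAJC genes that rose belong to the ER and to membrane traffic. DNAJC1, an ER membrane protein that faces HSPA5, had 13.17, 13.17 and 13.11 in induced samples, against 12.43, 12.39 and 12.31 in uninduced samples, and was 1.71-fold higher (limma, adjusted p = 4.87e-05), with 3 of 3 tested probe sets higher. DNAJC3 (p58IPK), an ER co-chaperone also known to restrain the kinase PERK, had 13.16, 13.17 and 13.17 in induced samples, against 12.55, 12.73 and 12.60 in uninduced samples, and was 1.46-fold higher (adjusted p = 0.000407). Of its 3 dimmer probe sets 1 fell by 0.45 and the others did not pass. DNAJC13 (RME-8), which sorts cargo on endosomes, had 10.72, 10.48 and 10.50 in induced samples, against 10.00, 10.14 and 9.98 in uninduced samples, and was 1.44-fold higher (adjusted p = 0.00158). DNAJC6 (auxilin), which uncoats clathrin vesicles, had 9.10, 9.14 and 9.05 in induced samples, against 8.57, 8.50 and 7.66 in uninduced samples, and was 1.80-fold higher (adjusted p = 0.0159). Uninduced replicate 3 was the low value here: without it the log2 difference was 0.56 in place of 0.85 (adjusted p = 0.000604), and without induced replicate 2 the gene missed the threshold (0.83, adjusted p = 0.0502).

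Of the remaining DNAJC genes, DNAJC11, a mitochondrial membrane protein, fell by 0.95 on the log2 scale, DNAJC30, also mitochondrial, by 0.63, and DNAJC7, a cytosolic partner of both HSP70 and HSP90, by 0.19 (limma, adjusted p = 0.000812, 0.00516 and 0.0328). Another probe set of DNAJC7 rose, with a mean of 4.87 in induced samples and 3.39, below the filter, in uninduced samples. DNAJC7 missed the threshold without induced replicate 1, without induced replicate 3, without uninduced replicate 1 or without uninduced replicate 2 (adjusted p = 0.069 to 0.118). DNAJC9, a histone chaperone, had 12.98, 13.10 and 13.03 in induced samples and 13.04, 13.08 and 12.97 in uninduced samples, with a difference of 0.00 and a 95% confidence interval of -0.15 to 0.16. Its other tested probe set rose by 0.21 (limma, adjusted p = 0.0317). DNAJC22 had 6.0, 5.96 and 5.98 in induced samples and 5.98, 5.99 and 6.04 in uninduced samples, a difference of -0.03 (95% confidence interval -0.16 to 0.11). The other probe sets of DNAJC22 lay below the filter, and after quantile normalization the gene passed at -0.23 (limma, adjusted p = 0.0304). DNAJC9 and DNAJC22 had the highest adjusted p in the family as reported, 0.957 and 0.711, and their groups overlapped. The other 9 did not pass and ranged from -0.25 for DNAJC27 to 0.19 for DNAJC4, with DNAJC5, DNAJC8, DNAJC14, DNAJC16, DNAJC17, DNAJC21 and DNAJC24 between them. Dimmer probe sets called lower numbered 2 of 3 tested for DNAJC5, 2 of 6 for DNAJC21 and 1 of 2 for DNAJC27.

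**Figure D3:**
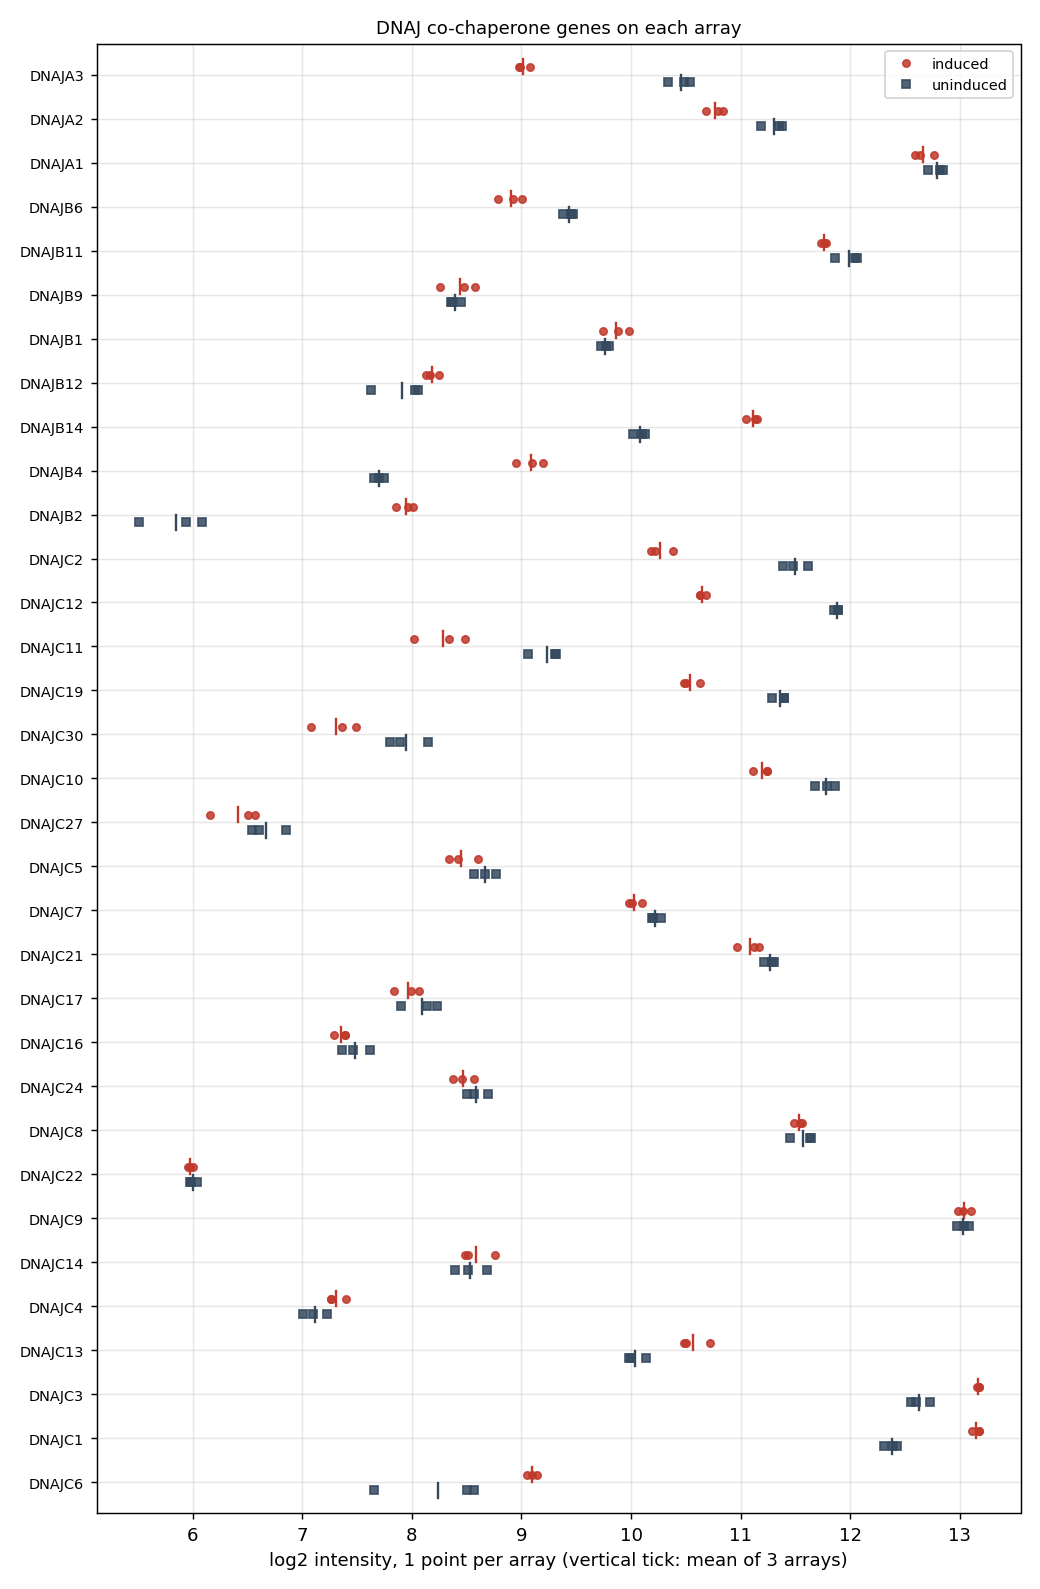
Log2 intensity of the 33 measured DNAJ genes on each array, with induced samples as circles above and uninduced samples as squares below for each gene, and a vertical tick at the mean of 3 arrays. DNAJB2, DNAJB4 and DNAJB14 are the genes with induced arrays farthest right of uninduced arrays, and DNAJA3, DNAJC2 and DNAJC12 those farthest left, while uninduced replicate 3 stands apart in DNAJC6.

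The members not tested were 21 coding genes and 4 non-coding transcripts, with means of 1.81 to 3.69 in either group and 4.04 as the highest value on any array. Beside the HSPA and HSPB genes named above they were DNAJA4, DNAJB5, DNAJB7, DNAJB8, DNAJB13, DNAJC5B, DNAJC5G, DNAJC15, DNAJC18 and DNAJC28, and the transcripts DNAJB8-AS1, DNAJC9-AS1, DNAJC27-AS1 and HSPA2-AS1. DNAJC3-DT, the 1 non-coding transcript above the filter, had 4.82, 4.48 and 4.65 in induced samples and 4.86, 4.61 and 4.49 in uninduced samples and did not pass (limma, adjusted p = 0.987). A fall could not be seen in genes that started below the filter.

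Sorted by the compartment in which the protein mainly works, the mitochondrial members fell in 7 of 7 tested cases, with a median log2 difference of -0.95. They are HSPA9, HSPD1, HSPE1, DNAJA3, DNAJC11, DNAJC19 and DNAJC30, which include HSPA9 and DNAJC19 of the import motor and both parts of the mitochondrial chaperonin. The mitochondrial members DNAJC15 and DNAJC28 lay below the filter. Of 28 tested members of the cytosol and nucleus 16 fell and 2 rose (DNAJB2 and DNAJB4), with a median of -0.23. Of 12 tested members of the ER 4 fell and 4 rose, with a median of 0.06. The ER genes that fell were HSPA5, HSP90B1, DNAJB11 and DNAJC10, and those that rose were HSPA13, DNAJB14, DNAJC1 and DNAJC3. Of 4 members of endosomes, vesicles or other sites 2 rose, DNAJC6 and DNAJC13, and 0 fell. The compartments were assigned from textbook knowledge, and 30.7% of all genes fell and 35.8% rose.

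**Figure D4:**
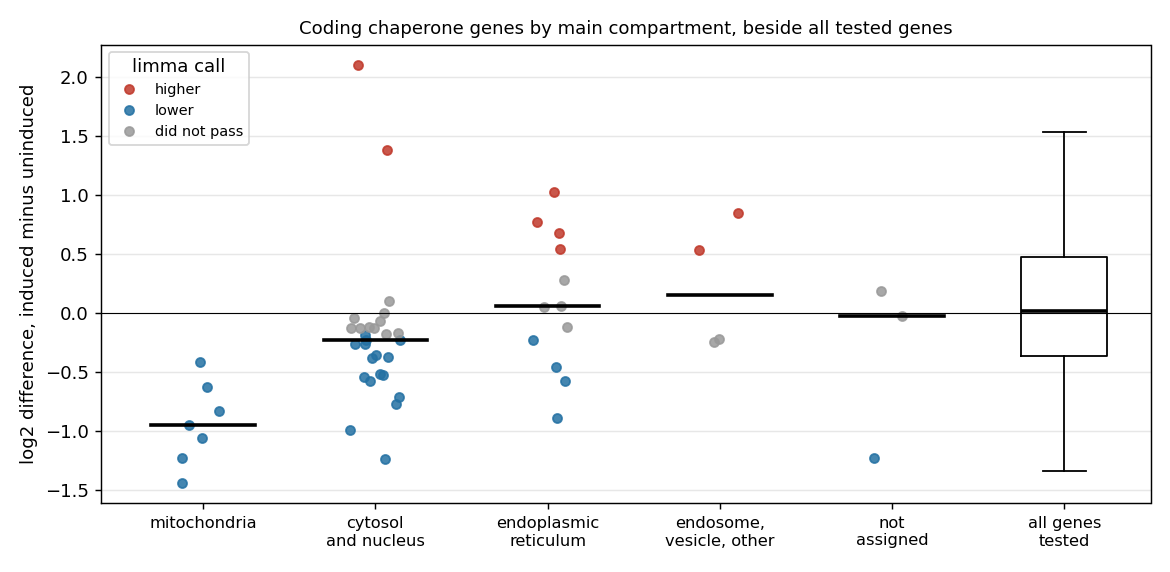
Log2 difference, induced minus uninduced, of the coding chaperone genes by the main compartment of the protein, 1 point per gene, coloured by limma call, with a bar at the median. The box at the right gives all 9834 genes tested (box from the 25th to the 75th percentile, line at the median, whiskers at the 5th and 95th). All 7 mitochondrial genes lie below 0, and ER genes lie on both sides.

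Where a gene had several probe sets, the size of the change often depended on which was read, and the values above rest on the brightest. Of 38 members with over 1 tested probe set, 20 had all of them called in 1 direction and 2 (DNAJC3 and DNAJC7) had calls in both. In 12 of those 20, or 60.0%, the brightest probe set showed the smallest difference, beside 50.4% of 1971 such genes over the whole array, so the share was near the background. HSPH1 differed by -0.77 on its brightest probe set and by -1.26 and -1.47 on the others. CCT5 differed by -0.38 on its brightest probe set and by -1.23 on the other, which averaged 7.78 in induced and 9.02 in uninduced samples. HSPA4L differed by -0.23 on its brightest probe set and by -1.04 on the other. The brightest probe set showed the larger change in DNAJB4 (1.38 against 0.28), HSPA5 (-0.89 against -0.63) and DNAJC19 (-0.83 against -0.60). Folds of such genes are therefore those of 1 probe set, and which part of a transcript each covers was not analysed here.

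**Figure D5:**
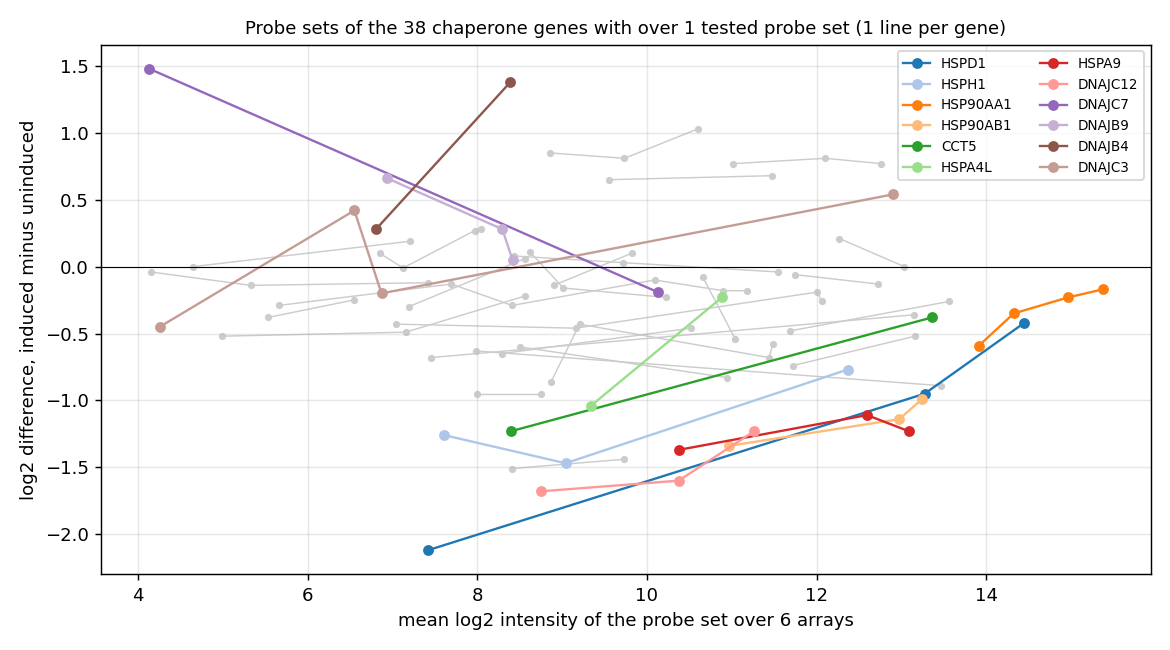
Log2 difference, induced minus uninduced, against mean log2 intensity for each tested probe set of the 38 chaperone genes with over 1, joined by a line for each gene, with 12 genes in colour. In HSPD1, HSP90AA1, HSP90AB1, CCT5 and HSPA4L the difference comes closer to 0 as the probe sets get brighter, while DNAJC7 and DNAJC3 cross 0.

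Genes that work with the chaperones were counted from lists that leave the members out. Of 17 measured HSP90 co-chaperones 9 fell and 3 rose, with a median log2 difference of -0.35. CACYBP, an SGT1-related protein that binds calcyclin, rose 4.37-fold and CHORDC1, which binds HSP90 directly, was 2.03-fold lower (limma, adjusted p = 1.65e-06 and 1.24e-05). Of 13 HSP70 nucleotide exchange factors and partners 9 fell and 2 rose, with a median of -0.58. GRPEL1, the exchange factor of HSPA9, was 2.87-fold and BAG1, an exchange factor of cytosolic HSP70, 2.07-fold lower (adjusted p = 9.18e-06 and 1.57e-05).

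Mitochondrial import and protein quality genes fell in 15 of 20 measured cases and rose in 0, with a median log2 difference of -0.51. TIMM44, which ties HSPA9 to the import channel, was 2.79-fold lower (limma, adjusted p = 5.94e-06). TRAP1, the mitochondrial HSP90, chosen after its values were seen, averaged 8.88 ± 0.20 in induced and 10.87 ± 0.11 in uninduced samples (SD, n = 3 each), 3.98-fold lower (adjusted p = 1.04e-05). GRPEL1 is counted in this list as well as among the exchange factors.

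As a whole, the list of prefoldin subunits and cofactors of TRiC and tubulin went the other way from the chaperonin subunits. Of its 12 measured genes 7 rose and 1 fell, with a median log2 difference of 0.22. The prefoldin subunits in it were mixed: PFDN1 (0.34) and VBP1 (0.23) rose, PFDN2 fell (-0.36), and PFDN4 and PFDN5 did not pass. The tubulin cofactor TBCC was 2.08-fold and the phosducin-like protein PDCL, a TRiC cofactor, 2.07-fold higher (limma, adjusted p = 8.59e-06 and 1.77e-05). Of 24 genes of ER folding and quality control 10 fell and 4 rose, with a median of -0.17, led by SDF2L1, a partner of DNAJB11 (3.48-fold lower), and the oxidase ERO1B (2.11-fold higher; adjusted p = 4.04e-06 and 2.34e-05).

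Regulators of the unfolded protein response were higher in 6 and lower in 3 of the 13 measured, with a median log2 difference of 0.17. The transcription factor ATF4 was 1.64-fold lower and EIF2AK3 (PERK), the ER stress kinase that DNAJC3 is known to restrain, 1.68-fold higher (limma, adjusted p = 0.000167 and 0.000228). Of 7 genes in the list of heat shock factors, which also holds HSBP1, 2 were measured. HSF1 averaged 7.61 ± 0.09 in induced and 7.98 ± 0.14 in uninduced samples (SD, n = 3 each) and was 1.29-fold lower (adjusted p = 0.0102), while HSBP1, a protein that binds HSF1, did not pass (0.01, adjusted p = 0.879). These counts stand beside the 30.7% lower and 35.8% higher of all genes.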

How the data were processed

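Expression was measured in 3 induced and 3 uninduced samples, grouped by their titles, on 1 array each. The deposited table holds 1 intensity per probe set and array, on a linear scale, and the submitters' processing notes name GCRMA, without a version. Background adjustment of this kind shrinks differences between dim probe sets. Log2 was taken after 6 values under 1 were raised to 1, and 62 control probe sets were dropped. Of 54675 probe sets 41091 had 1 symbol in GEO's platform annotation, 1801 had several and 11721 none. Of the first, 41037 were found by Entrez ID in the NCBI gene table, with 0 symbols changed. Of all probe sets 20552 had a log2 value above 4 on at least 3 arrays and entered a linear model (lmFit and eBayes of limma 3.58.1, R 4.3.3, two-sided), with Benjamini-Hochberg adjustment over all of them and a threshold of 0.05. "Rose" and "fell" mean past it.

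Each gene is represented by its brightest probe set, by mean log2 intensity. Members, lists and compartments were chosen with earlier results of these data known. Array values are given for all measured HSP90, HSPD1, HSPE1, CCT, HSPH and HSPB genes and, in each other family, for up to 4 with the smallest adjusted p in each direction and 2 with the largest, and other measured members by log2 difference or range. From each pathway list up to 2 with the smallest adjusted p are named. Alternatives were other filters, scalings, variance models and probe set choices, the replicate block and leaving out each array. On simulated data (20552 probe sets, 200 changed) limma recovered 46% of changes of 0.5 on the log2 scale, 90% of 1 and 100% of 2, with 9 wrong calls among 177. In the real data far more probe sets were called, 7112 higher and 5733 lower. The adjustment depends on how many change, so the shares recovered do not give the power of the real comparison. Figures were drawn with matplotlib 3.10.9.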

Additional observations from a re-analysis of the deposited data

How the results depend on the processing

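Under 15 alternatives the chaperone genes that fell numbered 23 to 36 and those that rose 7 to 9, against 28 and 8 as reported. Of the 36 called genes 29 kept their call in every alternative that could test them; the others were DNAJB11, DNAJC3, DNAJC6, DNAJC7, HSPA4, HSPA4L and HSPA14. Of the 19 that did not pass, 8 passed in no alternative. Quantile normalization gave 34 lower and 8 higher, median centring 36 and 8 and array weights 34 and 8, with HSP90AA1 called lower in each at -0.27, -0.25 and -0.23. In all genes, quantile normalization gave 40.5% lower and 35.0% higher, and median centring 36.9% and 33.1%, moving the median of all genes to -0.049 and -0.062. Array weights gave 35.5% lower and 36.1% higher in all genes. Averaging all probe sets of each gene, those below the filter included, DNAJC7 reversed to 0.43 and DNAJC3 was at 0.08 (limma, adjusted p = 0.437), while DNAJB9 passed at 0.33. With no filter DNAJC6 missed the threshold (adjusted p = 0.0851). Dropping the less specific _x_at and _s_at probe sets left 4365 probe sets higher and 3172 lower over the array, as fewer were tested, against 7112 and 5733, and averaging by gene gives no count of probe sets. Leaving out 1 array gave 23 to 30 lower and 7 to 9 higher members, and HSPA genes that fell numbered 2 to 5. In all genes these fits gave 26.6% to 33.2% lower and 32.7% to 34.0% higher. The replicate block gave 27 lower and 8 higher, with DNAJC7 the call lost (-0.19, limma, adjusted p = 0.051). Same-numbered samples deviated from their group means with correlations of -0.173, 0.000461 and 0.18. These lay within the range of differently numbered samples, -0.238 to 0.209. With 3 arrays in each group the correlations cannot decide whether the numbers pair the samples. Of the DNAJC genes 12 were lower after quantile normalization and 11 after median centring, against 7. Dim probe sets limit what can be seen: 25 members lay below the filter.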
